A study of Mus musculus with 6 samples.

Results

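Genes of insulin and IGF signalling were followed in primary mouse hepatocytes depleted of retinol saturase (RetSat), an oxidoreductase of the endoplasmic reticulum. The group comprised 10 named genes, all of which were measured, of 19938 genes tested: Insr, Irs1, Irs2, Foxo1, Igf1, Igfbp1, Igfbp2, Igfbp4, Igfals and Ghr. They were chosen by name for their place in the pathway, with earlier results of these arrays known. Each is represented by the probe set with the highest mean over the 6 arrays among those annotated to that gene alone. The comparison was between siRetSat hepatocytes, transfected with siRNA against RetSat, and siControl hepatocytes, transfected with control siRNA, with 3 transfections and 3 Affymetrix Mouse Gene 1.0 ST arrays each. By the design text deposited with the series, all cells came from 1 wild-type male C57BL/6J mouse aged 10 weeks. The cells were plated in medium with 25 mM glucose and 10% serum, transfected overnight with 1 nmol of siRNA per well, returned to serum-containing medium and lysed 48 h later. The description of the culture names no added insulin, IGF-1 or growth hormone. The study used these arrays to ask which genes depend on RetSat in hepatocytes. The p-values measure the spread between wells of cells from 1 mouse and not between mice. The labels and the methods name different suppliers of the siRNA, and the methods give a younger age for mice unless stated otherwise.

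All values are normalized log2 intensities, so that a difference of 1 is a 2-fold difference. Levels of different genes are not comparable on this scale, because each probe set has its own response. The Retsat signal was 4.62, 4.83 and 4.81 in siRetSat arrays, against 6.80, 7.04 and 7.01 in siControl arrays, so the knockdown matched the labels. Of the hepatocyte markers, Alb (albumin) had a mean of 13.05 in siRetSat and 12.98 in siControl, and the marker list showed 1 of 9 measured genes past the test, Fgb, which was lower. The arrays numbered 1 stood apart from the others of their group, since the first principal component of the deviations from the group means held 61.5% of the variance and separated them.

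In liver, insulin binds its receptor Insr, whose kinase phosphorylates the adaptors Irs1 and Irs2. These recruit phosphoinositide 3-kinase and activate Akt, which keeps the transcription factor Foxo1 out of the nucleus, and Foxo1 is known to switch on fasting genes such as Igfbp1 and Irs2. The growth hormone receptor Ghr acts through Jak2 and Stat5 to drive the hepatic output of Igf1 and of Igfals, the acid-labile subunit that keeps IGF in the circulation. The IGF binding proteins sequester IGF outside the cell.

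Igfbp1 and Igfbp4 carried the changes described here, and their promoters are therefore shown. Both genes lie on chromosome 11, and the windows reach from 250 bases before to 50 bases after the start annotated by RefSeq on GRCm38.p6, both on the + strand, at chr11:7197537-7197836 for Igfbp1 and chr11:99040994-99041293 for Igfbp4. Capitals mark matches to the motifs that were searched on both strands, namely CAAAACA (the core of the insulin response element), GTAAACA (the FoxO core) and TTCNNNGAA (the STAT element).
Igfbp1: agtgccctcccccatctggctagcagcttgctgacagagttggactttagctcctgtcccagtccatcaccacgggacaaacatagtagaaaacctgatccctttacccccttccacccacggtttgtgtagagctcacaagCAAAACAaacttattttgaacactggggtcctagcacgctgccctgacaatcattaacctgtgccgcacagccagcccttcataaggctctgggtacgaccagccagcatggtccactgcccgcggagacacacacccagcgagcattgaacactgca
Igfbp4: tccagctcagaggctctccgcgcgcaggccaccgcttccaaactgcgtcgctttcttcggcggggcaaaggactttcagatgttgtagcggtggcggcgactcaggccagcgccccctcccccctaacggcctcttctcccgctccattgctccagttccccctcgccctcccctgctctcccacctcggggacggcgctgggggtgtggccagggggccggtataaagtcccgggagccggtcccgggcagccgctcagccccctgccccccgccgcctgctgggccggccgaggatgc
The Igfbp1 window held 1 match, a CAAAACA whose first base lay at position -108 when the first transcribed base is counted as 0. The Igfbp4 window held none of the 3 motifs.

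The insulin response core was also found in the windows of Irs1 and Irs2, and these are printed to set them beside Igfbp1. Each is read in the direction in which the core stands as CAAAACA (capitals), with 15 bases on either side, on the + strand at chr1:82291529-82291565 and chr1:82291450-82291486 for Irs1, chr8:11008945-11008981 for Irs2 and chr11:7197664-7197700 for Igfbp1.
Igfbp1: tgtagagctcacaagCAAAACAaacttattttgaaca
Irs1, distal: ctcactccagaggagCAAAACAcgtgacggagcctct
Irs1, proximal: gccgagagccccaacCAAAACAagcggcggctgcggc
Irs2: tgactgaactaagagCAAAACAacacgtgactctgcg
Irs1 and Irs2 are transcribed from the opposite strand, so the core is inverted relative to transcription in both and direct in Igfbp1. Promoters of 9 members were matched, with 13 annotated starts, and 3 of these 13 windows held CAAAACA, compared with 6.28% of all 32851 promoter windows of the same length. GTAAACA was found in 1 of the 13 windows (3.65% of all) and TTCNNNGAA in 2 (8.3% of all), each of them an Igfals start, and no matches overlapped. Only exact matches were searched, so near copies of a core on either strand, in Igfbp1 or elsewhere, were not counted. These matches are letters in a window and not measured sites.

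**Figure D1:**
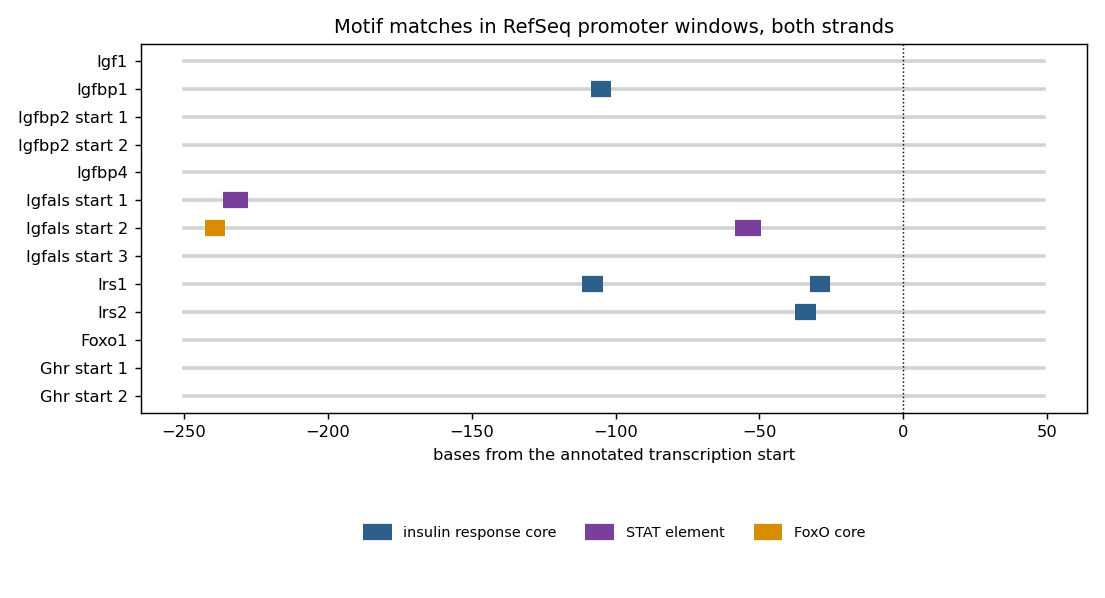
Matches to the insulin response core, the FoxO core and the STAT element in the 13 promoter windows of 9 genes, with distance in bases from the annotated start on the x axis. Igfbp1, Irs1 and Irs2 hold the insulin response core, at -108, at -111 and -32, and at -37, and Igfbp4 holds no match.

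RetSat depletion lowered Igfbp1, raised Igfbp4 and left no other member past the test. Of the 10 genes, 1 was higher and 1 lower at an adjusted p under 0.05 from limma (Benjamini-Hochberg over all 19938 genes), where the background was 1.91% of all genes higher, 1.66% lower and 3.56% in either direction. The same 2 genes were past the cutoffs of the study (p under 0.05 before adjustment, with an increase of 25% or more or the matching decrease), which 9.05% of all genes were. The median log2 change of the 10 genes was 0.06, and that of all genes was 0.00 (0.0033). The 95% intervals of the 8 other genes reached no lower than -0.57 and no higher than 0.44, so that they covered neither the change of Igfbp1 nor that of Igfbp4. No test of the difference between genes was made. Because the members were chosen with earlier results of these arrays known, their counts beside the background give no independent support. In these bulk samples, fewer cells of a type and less RNA per cell cannot be told apart.

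**Figure D2:**
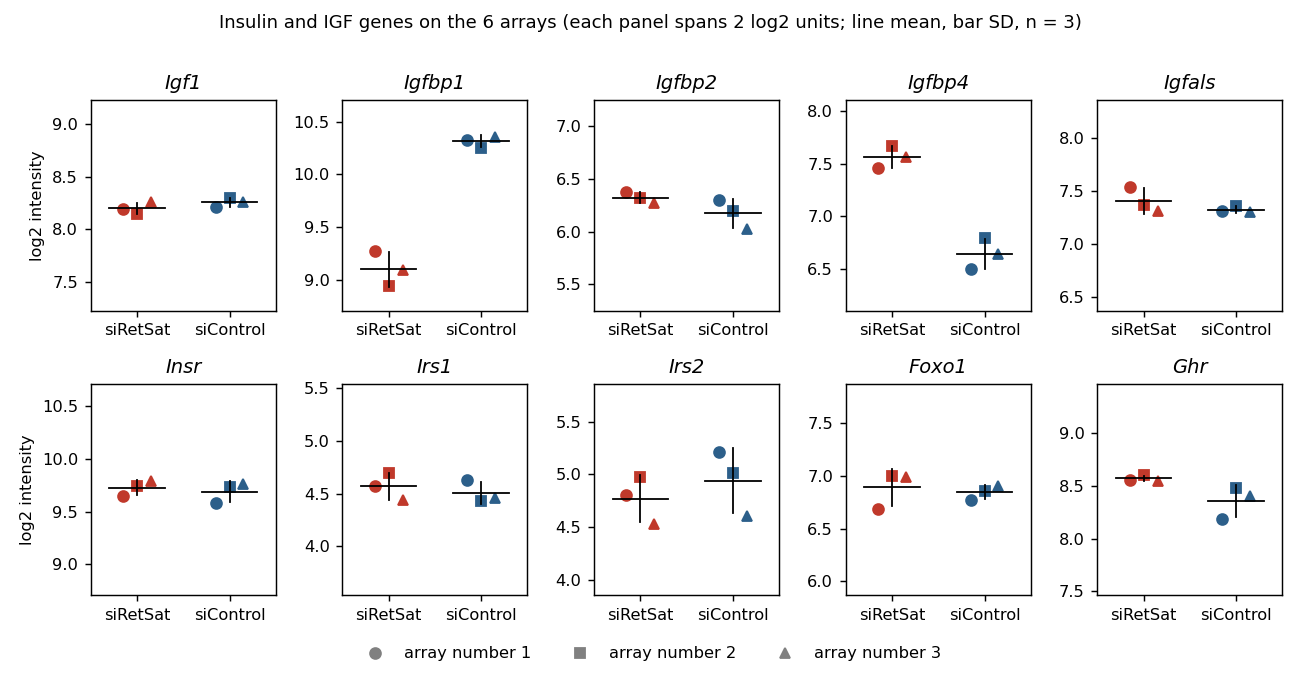
Normalized log2 intensity of each gene on every array, siRetSat left of siControl, with horizontal lines for means and vertical lines for 1 SD (n = 3). Igfbp1 lies at 8.94 to 9.27 in siRetSat and 10.25 to 10.36 in siControl, Igfbp4 at 7.46 to 7.67 and 6.50 to 6.79, and the other panels show smaller shifts on a span of the same 2 log2 units.

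Igfbp1 encodes a secreted IGF binding protein that hepatocytes release in fasting and that insulin represses. Its log2 intensity was 9.27, 8.94 and 9.09 in siRetSat arrays, against 10.33, 10.25 and 10.36 in siControl arrays. Every siRetSat array was below every siControl array, a separation in this direction that 10.1% of all genes showed. The mean was 9.10 ± 0.17 in siRetSat and 10.31 ± 0.06 in siControl (SD, n = 3 each). The log2 change, siRetSat minus siControl, was -1.21 (standard error 0.105, 95% interval -1.45 to -0.97, adjusted p = 0.00128 from limma). The siRetSat signal of Igfbp1 was thus 43.1% of that in siControl, with an interval of 36.5% to 51.0%. By p-value Igfbp1 ranked 36 among the 19938 genes, and by the size of its fall 25. The exact two-sided permutation test gave p = 0.1, the smallest that 3 against 3 arrays allow. The fall passed in all 6 fits that left out a single array, with log2 changes between -1.30 and -1.13, but not without both arrays numbered 2 (-1.17, adjusted p = 0.0917 from limma).

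Igfbp4, an IGF binding protein that holds IGF from its receptor until a protease cleaves it, changed in the opposite direction. Its log2 intensity was 7.46, 7.67 and 7.56 in siRetSat arrays, against 6.50, 6.79 and 6.64 in siControl arrays. The siRetSat values lay above all siControl values, a separation in this direction that 9.33% of all genes showed. The mean was 7.56 ± 0.11 in siRetSat and 6.64 ± 0.15 in siControl (SD, n = 3 each). The difference of 0.92 on the log2 scale (standard error 0.106, 95% interval 0.68 to 1.16, adjusted p = 0.00378 from limma) amounts to 1.89-fold (1.60-fold to 2.24-fold). Igfbp4 ranked 115 by p-value and 98 by the size of its rise. It passed in all 6 fits without a single array, between 0.85 and 0.99, but not without both arrays numbered 2 (0.94, adjusted p = 0.126) or both numbered 3 (0.92, adjusted p = 0.0724). By the per-gene test named in the methods, adjusted over all genes, Igfbp4 had 0.0606 and Igfbp1 0.0403.

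**Figure D3:**
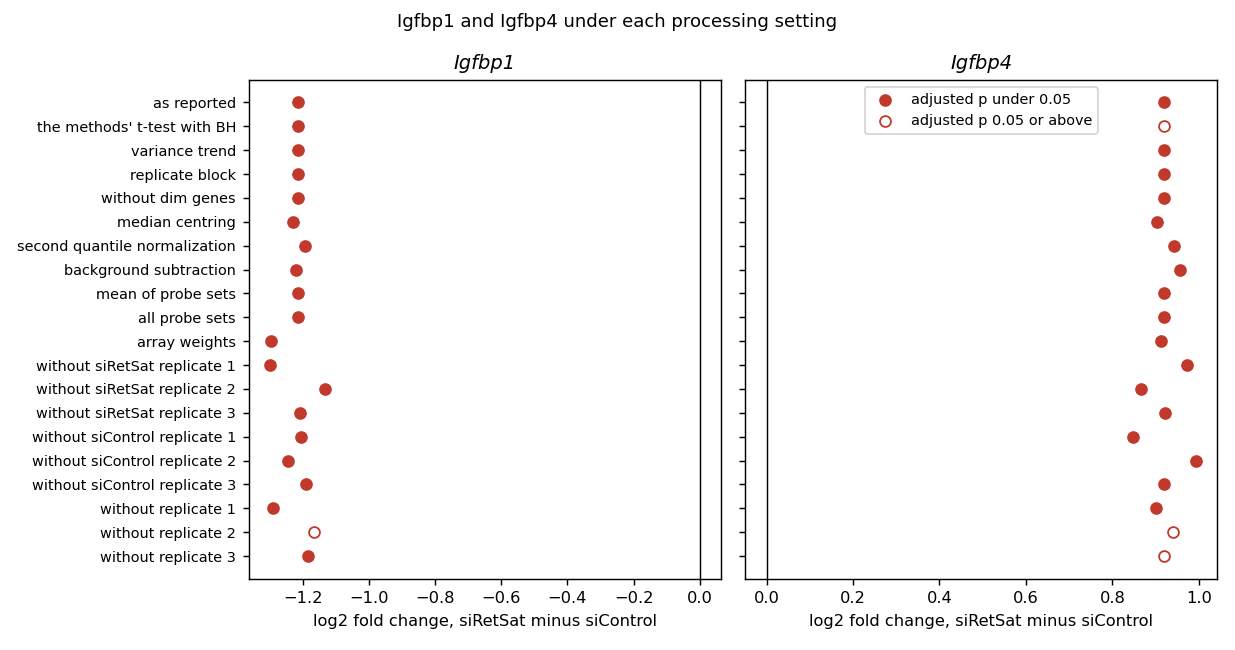
Log2 change of Igfbp1 and Igfbp4 as reported and under 19 other settings, filled where the adjusted p was under 0.05. Igfbp1 stays between -1.30 and -1.13 and Igfbp4 between 0.85 and 0.99, with 1 open point for Igfbp1 and 3 for Igfbp4.

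Igfbp4 is also expressed by non-parenchymal cells, so their markers are given beside it. None of 10 endothelial markers and none of 10 stellate cell and fibroblast markers passed the test. Their median log2 changes were 0.15 and 0.10, beside 0.00 (0.0033) for all genes. Single markers ran from -0.20 to 0.28 in the endothelial list and from -0.07 to 0.70 in the stellate list. The 0.70 was that of Col1a1, with 6.11, 7.51 and 5.71 in siRetSat, against 6.01, 5.78 and 5.43 in siControl. The summed linear signal of the endothelial list was 326 to 377 in siRetSat and 292 to 343 in siControl arrays, and that of the stellate list 237 to 455 and 229 to 291, so that the groups overlapped in both. Of 13 Kupffer cell markers 1 was higher, Cd14 (log2 change 0.59, adjusted p = 0.0208), the median log2 change was 0.09, and the summed signal was 3347 to 3581 in siRetSat and 2487 to 2768 in siControl, which did not overlap. Cd68 made up 84.1% to 87.4% of this sum and Cd14 7.01% to 9.54%, and the other 11 markers together came to 162 to 179 in siRetSat and 155 to 171 in siControl, which overlapped. Cd68, a macrophage lysosomal protein, had a mean of 11.54 in siRetSat and 11.14 in siControl (log2 change 0.40, adjusted p = 0.0563). The defining Kupffer markers Adgre1, Vsig4, Timd4 and Clec4f had means of 3.25, 2.96, 3.60 and 4.49 in siRetSat, against 3.16, 3.02, 3.65 and 4.25 in siControl, with an adjusted p of 0.497 for Clec4f, and 9 of the 13 were dim, meaning a mean under 4.33, the 40th percentile of all gene means. Of 5 bile duct markers 1 was higher, Sox9 (0.45, adjusted p = 0.0324), and the median log2 change was -0.07. Epcam had 0.36 (adjusted p = 0.129), whereas Krt19, Krt7 and Cftr had -0.20, -0.21 and -0.07. The summed signal of this list was 339 to 362 in siRetSat and 323 to 351 in siControl, which overlapped. By the cut of 4.33, 5 of the 10 stellate markers and 1 of the 10 endothelial markers were also dim, so a change in those could be missed. The part of other cells in the rise of Igfbp4 was not tested.

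The third binding protein in the group, Igfbp2, is made by hepatocytes and is known to respond to insulin and leptin. Its log2 intensity was 6.38, 6.32 and 6.27 in siRetSat arrays, against 6.30, 6.20 and 6.03 in siControl arrays, and the groups overlapped. The log2 change was 0.15 (95% interval -0.08 to 0.37, adjusted p = 0.627 from limma), so a 2-fold change such as that of the other binding proteins lies outside its interval. The remaining family members were read from the pathway lists. Igfbp3, the main carrier of circulating IGF and the neighbour of Igfbp1 on chromosome 11, had a log2 change of 0.11 (adjusted p = 0.832). Igfbp5, next to Igfbp2 on chromosome 1, had one of 0.49 (adjusted p = 0.370), with 5.13, 5.37 and 4.46 in siRetSat and 4.54, 4.68 and 4.27 in siControl. Igfbp6, which prefers IGF-2, had one of -0.33 (adjusted p = 0.127), and Igfbp7 one of -0.04 (adjusted p = 0.958). The genes on either side of Igfbp1, Adcy1 and Igfbp3, and those beside Igfbp4, Top2a and Tns4, all failed the test, with log2 changes of -0.01, 0.11, -0.21 and -0.04, although Top2a and Tns4 were dim, with means of 3.98 and 3.95 over the 6 arrays.

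**Figure D4:**
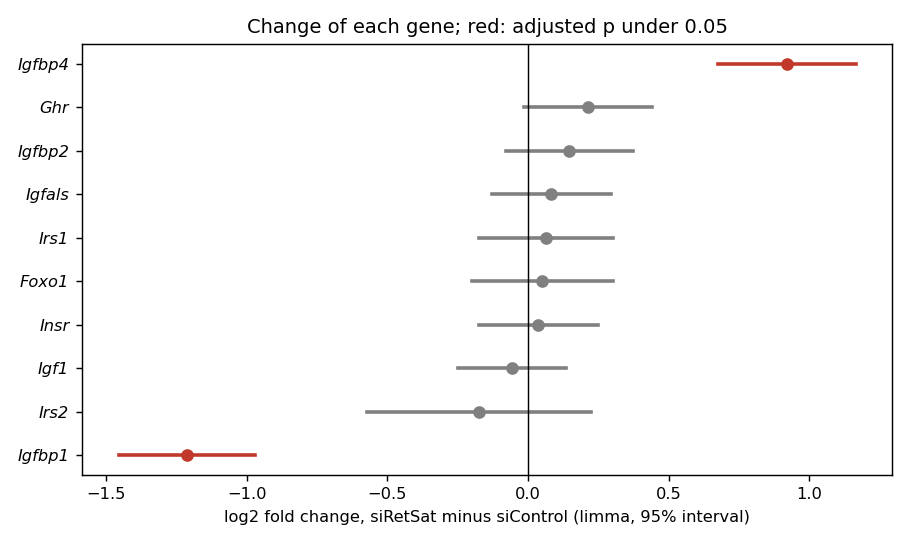
Log2 change of siRetSat over siControl for each of the 10 genes (points) with the 95% interval from limma (lines), red where the adjusted p was under 0.05. Igfbp4 at 0.92 and Igfbp1 at -1.21 lie apart from the other 8 genes, which run from -0.17 for Irs2 to 0.21 for Ghr.

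The hormone itself and its carrier subunit showed no detectable change. Igf1, the growth factor that liver secretes under growth hormone, had a log2 intensity of 8.19, 8.15 and 8.26 in siRetSat arrays, against 8.21, 8.30 and 8.26 in siControl arrays. The groups overlapped, and the log2 change was -0.06 (95% interval -0.25 to 0.13, adjusted p = 0.882 from limma). As a share of the siControl signal, the interval of Igf1 runs from 84.2% to 109.8%. Igfals had 7.54, 7.37 and 7.31 in siRetSat arrays, against 7.31, 7.36 and 7.30 in siControl arrays, with 1 high siRetSat array and otherwise level values. Its log2 change was 0.08 (95% interval -0.13 to 0.30, adjusted p = 0.828).

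Ghr, the receptor upstream of both, was the only member besides Igfbp1 and Igfbp4 whose groups did not overlap. Its log2 intensity was 8.56, 8.60 and 8.55 in siRetSat arrays, against 8.19, 8.48 and 8.40 in siControl arrays. The log2 change was 0.21 (standard error 0.0992, 95% interval -0.01 to 0.44) and did not pass the test (adjusted p = 0.387 from limma). Without the lowest array, siControl 1, it was 0.13. Members whose siRetSat values all lay above the siControl values thus numbered 2 of 10, beside the 9.33% of all genes, and those whose values lay below numbered 1, beside 10.1%.

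On the side of the insulin receptor no member passed the test. Insr had a log2 intensity of 9.65, 9.74 and 9.79 in siRetSat arrays, against 9.58, 9.73 and 9.76 in siControl arrays, almost the same values in both groups. Its log2 change was 0.04 (95% interval -0.17 to 0.25, adjusted p = 0.948 from limma), and the other probe set of Insr gave 8.14, 8.32 and 8.44 in siRetSat, against 8.09, 8.32 and 8.36 in siControl (adjusted p = 0.953 over all probe sets). Foxo1, the transcription factor that insulin holds back, had 6.69, 7.0 and 6.99 in siRetSat, against 6.77, 6.86 and 6.90 in siControl, a log2 change of 0.05 (95% interval -0.20 to 0.30, adjusted p = 0.934). The array measures Foxo1 mRNA and says nothing of where the protein lies or of its phosphorylation.

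The adaptors gave low signals, with means of 4.54 for Irs1 and 4.85 for Irs2 over the 6 arrays, close to the cut of 4.33. Irs1 had a log2 intensity of 4.57, 4.70 and 4.44 in siRetSat arrays, against 4.63, 4.43 and 4.46 in siControl arrays, with overlapping groups and a log2 change of 0.06 (95% interval -0.17 to 0.30, adjusted p = 0.895 from limma). Its other probe set, with a mean of 2.80, is too dim to add to this. Irs2, which insulin represses and FoxO activates, had 4.80, 4.97 and 4.53 in siRetSat arrays, against 5.21, 5.01 and 4.6 in siControl arrays. The groups overlapped, and the log2 change was -0.17 (95% interval -0.57 to 0.22, adjusted p = 0.797). At this level a change of Irs1 or Irs2 may be understated. The 3 members with the insulin response core in the window thus had log2 changes of -1.21 for Igfbp1, -0.17 for Irs2 and 0.06 for Irs1, and only the first of these passed.

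The members differed in how far their replicates spread. The pooled within-group SD was 0.05 for Igf1, the tightest of the 10, and 0.27 for Irs2, the widest, where the median over all genes was 0.14. Irs2 was lowest on the arrays numbered 3 in both groups, at 4.53 in siRetSat and 4.6 in siControl. Insr and Foxo1 were lowest on the arrays numbered 1 in both groups. Over the 6 deviations from the group means, the pairs of members most alike were Irs2 and Igfbp2 (Pearson r = 0.877), Igfbp4 and Ghr (r = 0.847) and Insr and Foxo1 (r = 0.795), given as a description of arrays that share the same separation by number.

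Around these 10 genes, 95 other pathway genes were listed in 6 groups, of which 87 were measured. Of the 87, 1 was higher and 5 were lower at an adjusted p under 0.05 from limma, or 6.9% in either direction beside the 3.56% of all genes. Medians of the 6 lists lay between -0.10 and -0.01, beside 0.00 (0.0033) for all genes. The lists were drawn up with earlier results of these arrays known and give no independent support to a direction.

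Among 16 measured receptor and adaptor genes, Ceacam1 fell and the other 15 did not pass. Ceacam1, a membrane glycoprotein that promotes the clearance of insulin by hepatocytes, had a log2 intensity of 8.82, 8.61 and 8.87 in siRetSat arrays, against 9.70, 9.99 and 9.62 in siControl arrays, which did not overlap. Its log2 change was -1.0 (standard error 0.124, adjusted p = 0.00506 from limma), and 49.9% of the siControl signal remained. The call was lost without both arrays numbered 2 (-0.82, adjusted p = 0.154), under background subtraction (adjusted p = 0.0513) and by the per-gene test of the methods (adjusted p = 0.0827). Ceacam1 has a close paralog, Ceacam2, whose transcripts may share its probes. Grb14, an adaptor that inhibits the insulin receptor, had a log2 change of -0.40 (adjusted p = 0.0842), and Igf2r, which clears IGF-2, one of 0.34 (adjusted p = 0.133). Igf1r, the IGF-1 receptor, was dim, with a mean of 4.28, and had one of 0.24 (adjusted p = 0.488).

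In the arm of phosphoinositide 3-kinase and Akt, 1 of 22 measured genes was lower at an adjusted p under 0.05 and none was higher. Akt1s1 (PRAS40), an Akt substrate that restrains mTORC1, had 7.95, 7.89 and 7.73 in siRetSat arrays, against 8.54, 8.30 and 8.43 in siControl arrays, a log2 change of -0.57 (adjusted p = 0.0241 from limma). Among the 6 single omissions it passed in 1, that of siRetSat 1. Akt2, the main Akt isoform of insulin action in liver, had a log2 change of 0.27 (adjusted p = 0.137), and Trib3, a pseudokinase that binds Akt, one of -0.35 (adjusted p = 0.154). Akt1 and Mtor had log2 changes of 0.01 and -0.05. The largest fall of the list was that of Phlpp1, which did not pass (-0.57, adjusted p = 0.214). At the study's cutoffs 5 of the 22 were lower and none higher, beside 9.05% of all genes in either direction. These were Akt1s1, Phlpp1, Trib3, Pik3r1 (-0.34) and Rictor (-0.33).

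Genes that insulin is known to repress through FoxO or otherwise did not move as one. Of 13 measured in this list, G6pc and Tat fell, none rose and 11 did not pass. The 13 include the factors Foxo3, Foxo4 and Foxo6 themselves. G6pc, which releases glucose from glucose 6-phosphate, had 4.31, 4.27 and 4.07 in siRetSat arrays, against 4.74, 4.82 and 4.69 in siControl arrays, a log2 change of -0.53 (adjusted p = 0.0246 from limma). It is dim in siRetSat, and it passed only without siRetSat 1 among the single omissions. Tat, a tyrosine aminotransferase induced by glucocorticoids, had 6.57, 6.65 and 6.80 in siRetSat, against 7.04, 7.61 and 7.52 in siControl, a log2 change of -0.72 (adjusted p = 0.0452), and passed only without siControl 1. Pdk4, another FoxO target, had a log2 change in the other direction, 0.52 (adjusted p = 0.127), and Pck1, the gluconeogenic carboxykinase, had one of 0.13 (adjusted p = 0.826). Foxo3 and Foxo4 had log2 changes of -0.02 and -0.05.

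Of 11 measured lipogenic genes that insulin induces, Thrsp rose and the other 10 did not pass. Thrsp (Spot14) had 7.30, 7.12 and 7.15 in siRetSat arrays, against 6.36, 5.94 and 6.04 in siControl arrays, a log2 change of 1.08 (adjusted p = 0.00378 from limma). Thrsp lost its call without both arrays numbered 2 (1.02, adjusted p = 0.154), without both numbered 3 (1.06, adjusted p = 0.0649) and by the per-gene test of the methods (adjusted p = 0.0726). Srebf1, the sterol response factor through which insulin induces many of these genes, had a log2 change of 0.04 (adjusted p = 0.936), Elovl6 one of -0.38 (adjusted p = 0.235) and Acacb one of 0.33 (adjusted p = 0.195). Several of these genes are also targets of ChREBP, and the list does not separate the regulators. At the study's cutoffs, which 9.05% of all genes passed, Thrsp and Acacb were higher and Elovl6 and Angptl8 lower. Angptl8 had a log2 change of -0.38 (adjusted p = 0.236), and the list median was -0.07. By qPCR in siRetSat hepatocytes, the study reported many genes of lipogenesis and fatty acid elongation as lower.

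Of 11 measured genes of growth hormone signalling, Onecut1 fell and the other 10 did not pass. Onecut1 (HNF6), a liver transcription factor induced by growth hormone, had 5.0, 5.32 and 5.38 in siRetSat arrays, against 6.33, 6.48 and 6.63 in siControl arrays, with no overlap. Its log2 change was -1.25 (standard error 0.129, adjusted p = 0.00248 from limma), and 42.1% of the siControl signal remained. It did not pass without both arrays numbered 2 (-1.29, adjusted p = 0.126) or by the per-gene test of the methods (adjusted p = 0.0647). Jak2 and Socs2, the kinase and a feedback inhibitor of the receptor, had log2 changes of -0.03 and -0.06, Stat5b one of 0.25 (adjusted p = 0.314) and Bcl6 one of -0.27 (adjusted p = 0.286). None of 14 other IGF system genes passed, where 9 of the 14 were dim, among them Igf2, Pappa, Stc2 and Stc1 (0.29, adjusted p = 0.329), so that a change in those could be missed.

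**Figure D5:**
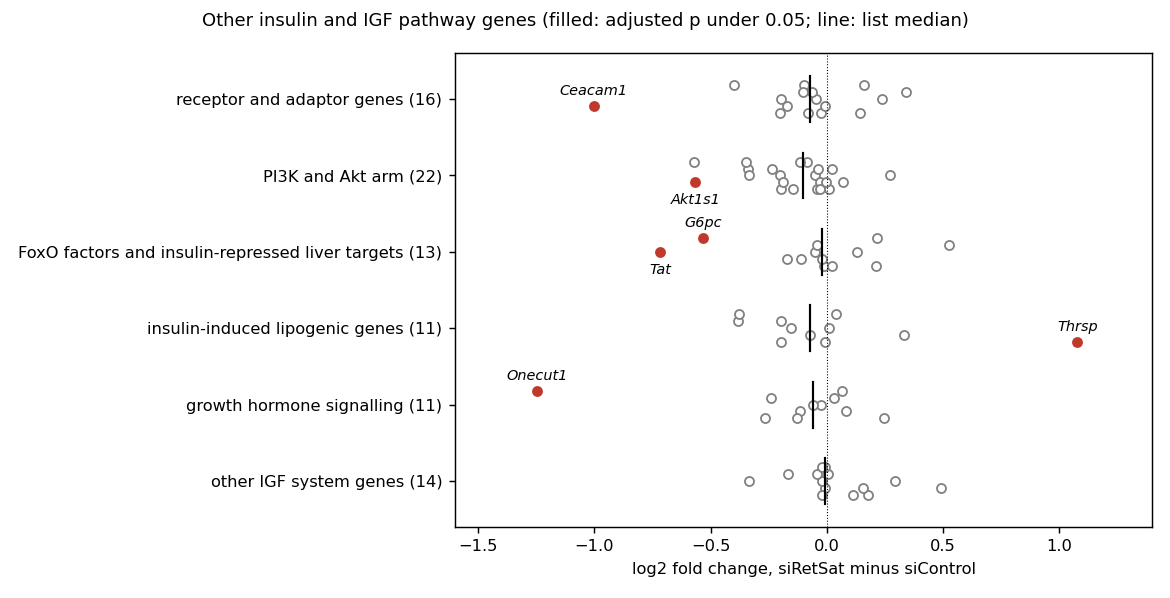
Log2 change of siRetSat over siControl for 87 other pathway genes in 6 lists, with the number measured in brackets, filled where the adjusted p was under 0.05, and a vertical line at each list median. Onecut1 at -1.25, Ceacam1 at -1.0, Tat at -0.72, Akt1s1 at -0.57 and G6pc at -0.53 lie to the left and Thrsp at 1.08 to the right of lists centred near 0.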

How the data were processed

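Total RNA (100 ng) was amplified, biotin-labelled and hybridised to 1 array per transfection. The deposited table gives log2 intensities of 35556 probe sets, normalized by the authors (RMA and Partek 6.6 in the submitters' processing notes). RMA as usually run makes the distributions of all arrays alike, which would make differences relative to the bulk of the genes. Array medians still ranged from 4.29 to 4.50 over all probe sets, so the deposited distributions were not fully alike. Filters were not stated in the sources. For arrays, the number of arrays limits the precision.

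Probe sets with 1 gene symbol in GEO's platform annotation (21789) were updated by Entrez identifier through RefSeq (GRCm38.p6), which matched 21698, and the brightest of each gene was kept (19938 genes). The contrast siRetSat minus siControl was fitted across all genes with limma 3.58.1 in R 4.3.3, without covariates, and p-values were adjusted by Benjamini-Hochberg. The fit was tested on simulated data. Members and lists were chosen with earlier results of these data known. Named beyond the 10 members are Retsat, the list genes past the test, those of smallest p in each list, and others picked after their values were seen: Igf1r, Akt1, Mtor, Phlpp1, Pik3r1, Rictor, Pck1, Foxo3, Foxo4, Srebf1, Angptl8, Jak2, Socs2, Igfbp3, Igfbp7, the markers and the genes beside Igfbp1 and Igfbp4. Promoters came from RefSeq. Insr had no entry. Alternatives are given in the closing section. Python 3.11.15, pandas 2.3.3 and matplotlib 3.10.9 were used for tables and plots.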

Additional observations from a re-analysis of the deposited data

How the results depend on the processing

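The direction of Igfbp1 and Igfbp4 held in all 19 alternative settings of each. Igfbp1 passed in 18, the exception being the fit without both arrays numbered 2 (-1.17, adjusted p = 0.0917 from limma), and ranged from -1.30 to -1.13. Igfbp4 passed in 16 and ranged from 0.85 to 0.99. It had 0.92 (adjusted p = 0.0606) by the methods' t-test after Benjamini-Hochberg adjustment, 0.94 (adjusted p = 0.126) without both arrays numbered 2 and 0.92 (adjusted p = 0.0724) without both numbered 3. The cause of these losses was not tested. None of the other 8 members passed in any alternative. Sign changes without a call were seen for Insr, which lay between -0.018 (without siControl 1) and 0.075 in the omissions and reached 0.082 in other settings, for Irs1, between -0.04 (without both arrays numbered 2; -0.0017 without siRetSat 2) and 0.13 in the omissions and up to 0.19 in others, and for Foxo1, between -0.0033 (without siRetSat 2) and 0.15. Stc1 was 0 under background subtraction.

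The number of members past the test was 2 as reported, 1 by the methods' t-test, and 0 to 2 when arrays were left out (2 in each single omission). Counts over the other pathway genes, 6 as reported, and over all genes, 710 as reported, moved more. By the methods' t-test they were 1 and 196, where the 1 was Akt2 (0.27, adjusted p = 0.0491) and all of the 6 reported genes lost their call (adjusted p between 0.0647 and 0.226). At the study's cutoffs limma gave 17 and 1805, and that t-test 13 and 1425. Array weights gave 19 and 2905. Omissions gave 0 to 6 and 15 to 822. For all genes a variance trend gave 1078, median centring 342 and background subtraction 445. The cause of these shifts was not tested. With the replicate number as a block the counts were 14 and 1541, and it changed the call of no member. The labels tie the numbers to no shared day or animal, and for that reason alone the numbers were not taken as pairs. The deviations of same-numbered arrays from their group means correlated at 0.547, 0.040 and 0.541 for numbers 1, 2 and 3. Their scores on the first principal component were alike in siRetSat and siControl, at -23.6 and -19.0, 7.3 and 3.7, and 16.4 and 15.4. An effect shared by number was not tested. Of the named genes, Grb14, Igf2r, Igfbp5, Igfbp6, Pdk4, Trib3 and Elovl6 passed under the block in addition. Of the other pathway genes, 13 of 87 were dim, which limits what can be seen of them. No member was dim, though Irs1 and Irs2 lay near the cut.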
